A study of Mus musculus with 6 samples.

Results

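A set of 47 mouse genes that carry out DNA replication and the start of S phase was followed in bone marrow-derived macrophages exposed to cancer cell-conditioned medium with or without its lipids. The genes were a named list, chosen by function, and each symbol was matched to 1 Ensembl gene of the count tables through GENCODE M21 on GRCm38. The tables held 46603 genes, and all 47 listed genes were found and had enough counts to be tested. Marrow came from C57BL/6/J mice aged 7 weeks and was grown into macrophages with 20% L929-conditioned medium, a usual source of macrophage growth factor. The cells were detached at day 6, reseeded, and given the conditioned medium 6 h later. One group received the medium with lipids (3 libraries), and the other group received the medium without lipids (3 libraries). Both groups had therefore been exposed to medium from cancer cells, and macrophages in plain medium were not analysed here. No source used here gives the line of cancer cells, how the lipids were taken out, how long the cells were exposed or whether marrow of several mice was pooled. Libraries were poly(A)-selected and held 19429022 to 25323053 counts.

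Replication starts from origins that are marked in G1 by the origin recognition complex, on which Cdc6 and Cdt1 load the Mcm2 to Mcm7 ring. Once cyclin E and Cdk2 are active, Cdc45 and the GINS complex join the ring to make the working helicase, and primase, polymerases, the sliding clamp and ligase then copy both strands. Most of these genes are transcribed late in G1 under E2F factors, so their mRNA levels tend to follow how many cells of a culture are entering or passing through S phase. Macrophages grown from marrow keep dividing while growth factor is present. In bulk RNA, fewer cells in S phase and less mRNA per cell cannot be told apart.

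E2F factors bind a short GC-rich motif, and the promoters of 4 of the genes described below are shown with it. Promoters were taken from RefSeq on GRCm38.p6, from 250 bases before to 50 bases after each start, and matched 39 of the 47 genes. Capitals mark TTTGGCGC, TTTGCCGC, TTTCGCGC or TTTCCCGC on either strand. The 4 had the smallest p among the genes picked by the naming rule given with the processing and holding one of these spellings. They encode a DNA ligase (Lig1), a licensing factor (Cdt1), a clamp-loader subunit (Rfc3) and a polymerase delta subunit (Pold3). Lig1 has 3 windows in the table, and the one shown is the only one of them that holds such a spelling.
Lig1 promoter (chr7:13278576-13278875, plus strand): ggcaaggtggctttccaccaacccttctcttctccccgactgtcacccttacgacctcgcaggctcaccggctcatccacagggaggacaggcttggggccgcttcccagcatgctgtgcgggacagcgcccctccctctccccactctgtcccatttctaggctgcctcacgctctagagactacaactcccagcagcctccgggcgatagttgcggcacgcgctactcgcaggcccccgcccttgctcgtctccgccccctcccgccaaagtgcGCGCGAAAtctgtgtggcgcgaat
Cdt1 promoter (chr8:122567765-122568064, plus strand): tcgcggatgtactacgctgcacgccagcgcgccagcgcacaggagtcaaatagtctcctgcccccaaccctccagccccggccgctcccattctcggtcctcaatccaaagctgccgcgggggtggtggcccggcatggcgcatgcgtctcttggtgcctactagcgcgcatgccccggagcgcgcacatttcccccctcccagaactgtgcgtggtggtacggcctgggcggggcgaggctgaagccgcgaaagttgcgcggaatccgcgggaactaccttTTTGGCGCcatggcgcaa
Rfc3 promoter (chr5:151651159-151651458, minus strand): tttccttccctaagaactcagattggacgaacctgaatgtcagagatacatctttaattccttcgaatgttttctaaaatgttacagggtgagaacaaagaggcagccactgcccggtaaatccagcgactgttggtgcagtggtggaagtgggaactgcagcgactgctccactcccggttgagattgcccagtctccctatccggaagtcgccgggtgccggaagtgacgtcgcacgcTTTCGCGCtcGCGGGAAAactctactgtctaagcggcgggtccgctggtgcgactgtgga
Pold3 promoter (chr7:100121453-100121752, minus strand): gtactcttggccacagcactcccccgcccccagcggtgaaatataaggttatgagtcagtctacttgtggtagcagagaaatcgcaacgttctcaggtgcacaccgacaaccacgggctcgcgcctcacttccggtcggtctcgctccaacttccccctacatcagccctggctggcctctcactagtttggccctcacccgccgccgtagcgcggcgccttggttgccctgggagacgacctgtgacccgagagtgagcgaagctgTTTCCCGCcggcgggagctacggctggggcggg
Counting the start site as 0, the motif began at base 26 in Lig1, at 32 in Cdt1, at -10 and 0 in Rfc3 and at 17 in Pold3. Of the 39 matched genes, 15 (38.5%) held at least 1 such motif in any of their windows of 300 bases, against 2.61% of the 27025 genes in the promoter table. They were Cdc6, Cdt1, Gins3, Lig1, Mcm3, Mcm5, Mcm6, Mcm7, Orc1, Pola1, Pold1, Pold3, Pole2, Rfc3 and Uhrf1. The CCAAT box was in 23 of 39 (59.0%), against 41.1% of all genes. The cell cycle homology region TTTGAA, an element of mitotic promoters, was in 5 of 39 (12.8%), against 20.2% of all genes. Both were searched on both strands, and neither of these motifs lies within an E2F spelling. These matches describe letters in a window and are not measured binding sites.

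With lipids, 42 of the 47 replication genes had a higher estimated level than without lipids, and 5 had a lower one. The median log2 fold change, with minus without lipids, was 0.23, against -0.0032 over the 12767 tested genes. In edgeR's quasi-likelihood F test with Benjamini-Hochberg adjustment over all tested genes, 2 of the 47 passed an adjusted p of 0.05, both higher with lipids. They were Prim1, the catalytic subunit of primase, and Tk1, the thymidine salvage kinase, and no gene of the list was called lower. Over all tested genes, 4.58% were called higher with lipids and 6.87% lower, so by this test the share of replication genes called was near the background. A further 8 had an adjusted p between 0.05 and 0.1, and all 8 were higher with lipids. At an unadjusted p under 0.05 there were 21 replication genes (44.7%), of which only Cdt1 was lower with lipids, against 26.6% of all tested genes. DESeq2 called 8 of the 47 higher, against 5.01% of all tested genes higher and 7.1% lower. With limma-voom 5 of the 47 were higher, against 4.7% of all tested genes higher and 6.62% lower, and neither tool called a replication gene lower. Scaled by library totals alone, edgeR called 13 replication genes higher, and over all genes 1241 higher (9.72%) and 596 lower (4.67%), against 585 higher and 877 lower with scaling by trimmed mean of M-values (TMM).

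Prim1 lies on the plus strand at chr10:128015168-128030037 of GRCm38. Its level was 27.6, 30.4 and 28.8 CPM in replicates 1, 2 and 3 with lipids, against 23.4, 21.4 and 15.4 CPM in replicates 1, 2 and 3 without lipids, where CPM are counts per 1000000 scaled by TMM factors. Every library with lipids was above every library without, and replicate 3 without lipids was the lowest. The log2 fold change was 0.53 (SE 0.13, adjusted p = 0.0234 by edgeR). Tk1, on the minus strand at chr11:117815526-117826092, had 70.7, 67.7 and 66.1 CPM with lipids, against 59.6, 54.8 and 41.5 CPM without lipids. Its groups did not overlap either, and again replicate 3 without lipids was lowest. Its log2 fold change was 0.39 (SE 0.11, adjusted p = 0.0432 by edgeR). Both calls were lost when any 1 library with lipids, or replicate 2 without lipids, was left out, with adjusted p of 0.0676 to 0.104 for Prim1 and 0.0998 to 0.157 for Tk1 by edgeR. Both genes were still called when replicate 1, or replicate 3, of the libraries lacking lipids was left out.

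The libraries without lipids did not behave alike. Relative to the mean of the libraries with lipids, the median replication gene was at a log2 ratio of -0.01 in replicate 1, -0.21 in replicate 2 and -0.60 in replicate 3 without lipids. The libraries with lipids themselves were at 0.04, 0.03 and -0.07 on the same scale. Replicate 1 without lipids was thus at the level of the cells with lipids, and replicate 3 was well below it. Over all tested genes the same medians lay between -0.0018 and 0.0087 in the libraries without lipids. Replicate 3 was the lowest of all 6 libraries for 42 of the 47 genes (89.4%), against 20.3% of all tested genes. Within the group without lipids, replicate 1 was highest for 40 of 47 and replicate 3 lowest for 45 of 47, against 38.7% and 34.2% of all tested genes.

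**Figure D1:**
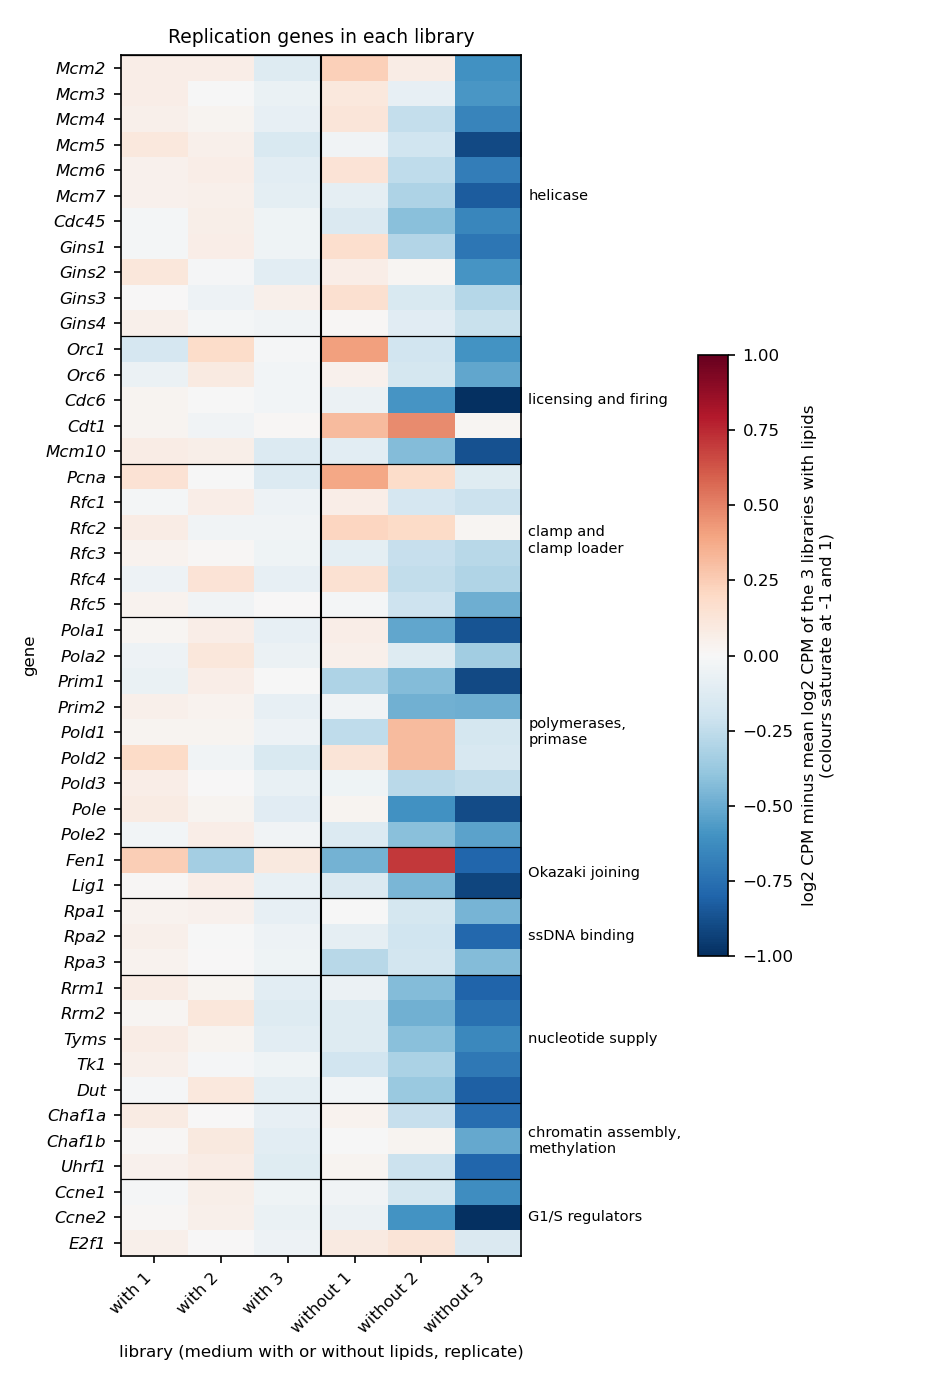
Level of each of the 47 replication genes (rows, grouped by role) in each library (columns, with lipids left of without lipids), as log2 CPM minus the mean log2 CPM of the 3 libraries with lipids. The column of replicate 1 without lipids is pale, and that of replicate 3 is blue for nearly every gene, lowest of the 6 libraries in 42 of 47.

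The SD of log2 CPM over 3 libraries was larger without lipids than with lipids for 47 of the 47 genes, against 74.1% of all tested genes. Its median over the replication genes was 0.07 with lipids and 0.31 without lipids. Over all tested genes the medians were 0.07 with lipids and 0.14 without lipids. Replicate 1 without lipids was below every library with lipids for 12 genes, replicate 2 for 37 and replicate 3 for 44. All 3 were below for 10 genes (21.3%), which were Cdc45, Cdc6, Rfc3, Prim1, Pole2, Lig1, Rpa2, Rpa3, Tyms and Tk1. Over all tested genes, 14.7% were wholly higher with lipids and 15.8% wholly lower, and no replication gene was wholly lower.

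As the libraries without lipids spread so widely for these genes, each library was left out in turn. Without replicate 1 of the group without lipids, edgeR called 32 of the 47 replication genes higher with lipids and 0 lower, at a median log2 fold change of 0.41. In that fit 12% of 13039 tested genes were called higher and 15.1% lower. With replicate 3 left out in place of replicate 1, edgeR called 2 genes higher (Prim1 and Tk1) and 1 lower (Cdt1), and the median was 0.10. That fit called 5.01% of 12942 tested genes higher and 6.69% lower, so these counts were near the background. Leaving out any other library left 0 edgeR calls, with medians of 0.23 to 0.27 and 9 to 18 replication genes at an unadjusted p under 0.05. The direction of the median held in every such fit, and the number of genes called depended on which libraries were used.

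**Figure D2:**
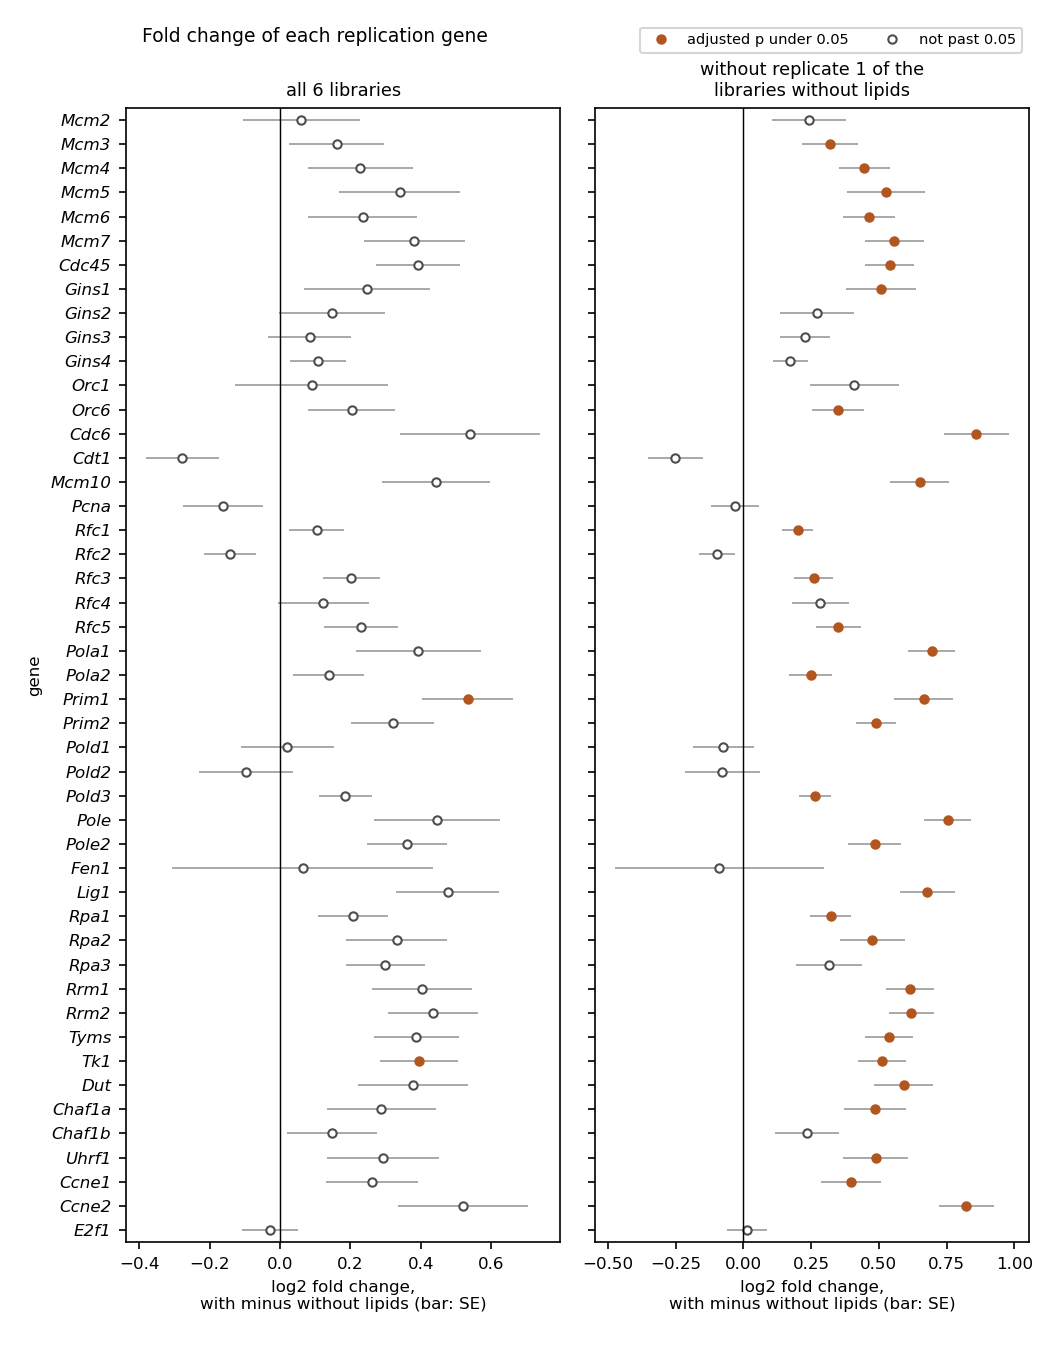
Log2 fold change of each replication gene (points; bars are SE), with minus without lipids, in all 6 libraries (left) and without replicate 1 of the libraries without lipids (right). Filled points passed an adjusted p of 0.05 in edgeR, which were 2 genes on the left and 32 on the right.

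Among the 11 helicase genes, all had a positive log2 fold change, none passed the threshold in the 6 libraries, and the median was 0.23. Mcm6, a ring subunit with the highest mean CPM of this group, had 304, 309.9 and 275 CPM with lipids, against 324, 248 and 183 CPM without lipids. Replicate 1 without lipids was the highest of the 6 and replicate 3 the lowest, so the groups overlapped. The log2 fold change of Mcm6 was 0.23 (SE 0.16, adjusted p = 0.373 by edgeR). Cdc45, which joins the ring as it is activated, had 20.5, 21.6 and 20.1 CPM with lipids, against 18.8, 15.5 and 13.2 CPM without lipids. Its groups did not overlap, at a log2 fold change of 0.39 (SE 0.12, adjusted p = 0.0581 by edgeR). Fold changes ran from 0.06 for Mcm2 to 0.38 for Mcm7 among the ring subunits, and the GINS genes Gins1, Gins2, Gins3 and Gins4 were at 0.25, 0.15, 0.08 and 0.11. In the fit that left out replicate 1 without lipids, edgeR called 7 of 11 higher, which were Mcm3, Mcm4, Mcm5, Mcm6, Mcm7, Cdc45 and Gins1, at a median of 0.45. Over all tested genes that fit called 12% higher. With replicate 3 without lipids left out instead, the median was 0.05, 4 of the 11 were negative and 0 were called by edgeR, with 2 at an unadjusted p under 0.05.

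Of the 5 licensing and origin firing genes, 4 had a positive log2 fold change and 1 a negative one, and none was called. Mcm10, which acts when the loaded helicase is activated, had 35.0, 34.5 and 30.2 CPM with lipids, against 30.9, 24.6 and 18.2 CPM without lipids. The groups overlapped through replicate 1 without lipids, and the log2 fold change was 0.44 (SE 0.15, adjusted p = 0.0911 by edgeR). Cdc6, a loader of the ring, had the largest fold change of all 47 genes, 0.54 (SE 0.20, adjusted p = 0.110 by edgeR). Its values were 24.6, 24.1 and 23.7 CPM with lipids, against 23.2, 16.0 and 10.8 CPM without lipids. Its groups did not overlap, and replicate 3 without lipids was the lowest. Cdt1, the partner of Cdc6 in loading, had 30.7, 29.4 and 30.3 CPM with lipids, against 37.4, 41.7 and 30.5 CPM without lipids. Here replicates 1 and 2 without lipids were above every library with lipids, and replicate 3 lay among them. The log2 fold change of Cdt1 was -0.28 (SE 0.10, adjusted p = 0.115 by edgeR), the most negative of the list. The origin recognition genes Orc1 and Orc6 were at 0.09 and 0.20, and Orc1 had only 3.54 to 7.10 CPM across the libraries.

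The sliding clamp and its loader had a median log2 fold change of 0.11, the smallest of the role groups, and none of its 6 genes was called. Pcna, the clamp that tethers the polymerases, had 289, 259.6 and 237 CPM with lipids, against 341, 297 and 240.5 CPM without lipids. The groups overlapped, and replicate 1 without lipids was the highest library. The log2 fold change of Pcna was -0.16 (SE 0.11, adjusted p = 0.405 by edgeR). Rfc3, a small subunit of the loader, had 25.6, 25.2 and 24.3 CPM with lipids, against 23.3, 21.3 and 20.6 CPM without lipids. Its groups did not overlap, and its log2 fold change was 0.20 (SE 0.08, adjusted p = 0.135 by edgeR). The other loader subunits Rfc1, Rfc4 and Rfc5 were at 0.10, 0.12 and 0.23, and Rfc2 was at -0.14. In the fit without replicate 1 of the group without lipids, edgeR called Rfc1, Rfc3 and Rfc5 higher and Pcna was at -0.03. That fit called 12% of all tested genes higher. With replicate 3 without lipids left out instead, edgeR called 0 of the 6, and the median was 0.05.

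Among the 9 polymerase and primase genes, 8 were positive and Prim1 was the only 1 called. Of the primase-polymerase alpha complex that lays down primers, Prim2 was at 0.32, Pola1 at 0.39 and Pola2 at 0.14. Polymerase epsilon, which copies the leading strand, had log2 fold changes of 0.45 for its catalytic subunit Pole and 0.36 for Pole2. Polymerase delta, which copies the lagging strand, had 0.02 for the catalytic subunit Pold1, -0.10 for Pold2 and 0.19 for Pold3. Pold3, the gene of this group with the highest mean CPM, had 68.2, 65.3 and 61.7 CPM with lipids, against 62.9, 53.9 and 54.7 CPM without lipids. Only replicate 1 without lipids entered the range with lipids, and the log2 fold change had an SE of 0.08 (adjusted p = 0.147 by edgeR). Without replicate 1 of the group without lipids, 7 of the 9 were called higher by edgeR, all but Pold1 and Pold2, whose log2 fold changes were then -0.07 and -0.08. Of all tested genes, 12% were called higher in that fit. Leaving out replicate 3 without lipids instead left only Prim1 called, at a group median of 0.20.

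Lig1, the ligase that seals Okazaki fragments, had 106, 110.1 and 99.8 CPM with lipids, against 95.1, 76.6 and 55.7 CPM without lipids. Its groups did not overlap, and its log2 fold change was 0.48 (SE 0.15, adjusted p = 0.0609 by edgeR). Fen1, the flap endonuclease that trims these fragments first, was barely counted, at 1.04, 0.692 and 0.936 CPM with lipids, against 0.632, 1.43 and 0.506 CPM without lipids. Its log2 fold change was 0.06 with an SE of 0.37, so no direction can be read. Of its exon bases, 84.2% lie over Gm10143, an annotated gene on the opposite strand, and the 6 libraries held 111 counts for Fen1 and 53 for Gm10143. Of 55 protein-coding genes that share at least 90% of exon bases with opposite-strand genes, 96.4% averaged under 1 CPM. Of 16882 that share none, 53.6% did, and Fen1 falls in neither set. The part of the Gm10143 overlap in the Fen1 count was not tested. Gins2 and Chaf1a share 67.3% of exon bases with Gse1 and 52.5% with Ubxn6, and no source used here gives the strand setting of the counting. Of the 47 genes, 33 share none.

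The single-strand binding protein RPA had all 3 subunits above 0, with none called. Rpa1, its large subunit, had 129, 130.1 and 119 CPM with lipids, against 126, 111 and 91.5 CPM without lipids. Of the libraries without lipids, replicate 1 lay within the range with lipids, and the log2 fold change was 0.21 (SE 0.10, adjusted p = 0.212 by edgeR). Rpa3, the smallest subunit, had 7.83, 7.69 and 7.44 CPM with lipids, against 6.32, 6.74 and 5.65 CPM without lipids. Replicate 2 was the highest library without lipids here, as for 7 of the 47 genes, and the groups did not overlap. Its log2 fold change was 0.30 (SE 0.11, adjusted p = 0.116 by edgeR), close to the 0.33 of Rpa2.

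Genes of nucleotide supply all leaned the same way. The 5 log2 fold changes were positive, from 0.38 for Dut, which removes dUTP, to 0.43 for Rrm2, the regulated subunit of ribonucleotide reductase, and all 5 had an unadjusted p under 0.05. Rrm1, the large subunit of ribonucleotide reductase, had 220.3, 214 and 194 CPM with lipids, against 201, 155 and 120.3 CPM without lipids. Replicate 1 without lipids lay within the range with lipids, and the log2 fold change was 0.40 (SE 0.14, adjusted p = 0.0963 by edgeR). Tyms, which makes thymidylate, was at 0.39 with an adjusted p of 0.0638 by edgeR, and Rrm2 had 0.0529. Median log2 ratios of the group to the mean with lipids were -0.13, -0.42 and -0.74 in replicates 1, 2 and 3 without lipids. When replicate 1 without lipids was left out, all 5 were called higher by edgeR, against 12% of all tested genes. When replicate 3 without lipids was left out instead, only Tk1 was called, at a group median of 0.26. That fit called 5.01% of all tested genes higher.

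**Figure D3:**
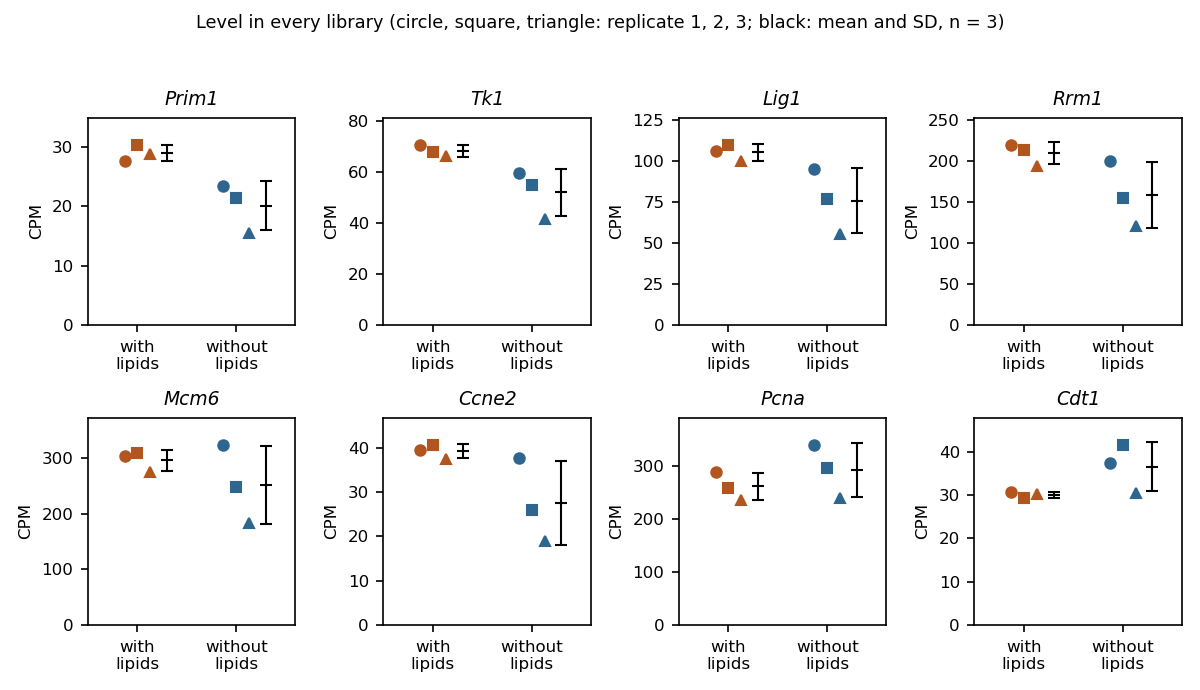
CPM of 8 of the described genes in every library, with lipids left of without lipids (circle, square and triangle are replicates 1, 2 and 3; black bars are mean and SD, n = 3). In each panel replicate 3 is the lowest library without lipids and the libraries with lipids lie closer together than those without, and of the 8 genes Prim1, Tk1 and Lig1 have groups that do not overlap.

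Chromatin assembly and methylation genes had overlapping groups throughout. Chaf1a, the large subunit of the histone chaperone CAF-1, had 42.2, 39.9 and 37.6 CPM with lipids, against 40.8, 34.0 and 23.5 CPM without lipids. Again replicate 1 without lipids lay among the libraries with lipids, and the log2 fold change was 0.29 (SE 0.15, adjusted p = 0.265 by edgeR). Uhrf1, which brings the maintenance methyltransferase to new DNA, had 88.0, 89.9 and 78.7 CPM with lipids, against 87.2, 73.7 and 49.2 CPM without lipids. The pattern was the same, with a log2 fold change of 0.29 (SE 0.16, adjusted p = 0.271 by edgeR). Chaf1b was at 0.15.

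None of the 3 regulators of S-phase entry was called. Ccne2, a cyclin E, had 39.5, 40.7 and 37.5 CPM with lipids, against 37.6, 25.9 and 18.9 CPM without lipids. Replicate 1 without lipids was within the range with lipids and replicate 3 was the lowest, with a log2 fold change of 0.52 (SE 0.18, adjusted p = 0.0971 by edgeR). E2f1, an activating transcription factor of the pathway, had 62.7, 60.5 and 58.3 CPM with lipids, against 64.5, 66.1 and 54.6 CPM without lipids. Its groups overlapped, and its log2 fold change was -0.03 (SE 0.08, adjusted p = 0.861 by edgeR), with a sign that turned to 0.05 when libraries were scaled by their totals alone. Ccne1 was at 0.26. The median log2 fold change was 0.23 for the 15 genes with an E2F motif in any promoter window and 0.25 for the 24 matched genes without, and the windows of Prim1 and Tk1 held none.

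Levels were compared between genes per exon length, which merged the exons of all annotated transcripts of a gene. Where this exceeds the length of the mRNA made, the value is too low, so the order is approximate. On that scale, ordered by the mean with lipids, Pcna was the most abundant of the 47, at 109 CPM per kb of exon with lipids and 122 without lipids. Mcm6 came next, at 63.5 with lipids and 54.0 without lipids, then Rrm2 at 38.9 with lipids and 28.8 without lipids, and Mcm3 at 35.8 with lipids and 32.0 without lipids. The ring subunits Mcm5 and Mcm4 followed. Ordered by the mean without lipids, Mcm3 was above Rrm2 and Mcm4 above Mcm5. Orc1 was at 1.54 with lipids and 1.47 without lipids, and Fen1 was lowest. The counts of Fen1, Gins2 and Chaf1a carry the opposite-strand overlaps given above, so their places in this order are uncertain. Together the 47 genes held 0.303%, 0.301% and 0.276% of all counts in the libraries with lipids, against 0.289%, 0.242% and 0.189% without lipids.

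**Figure D4:**
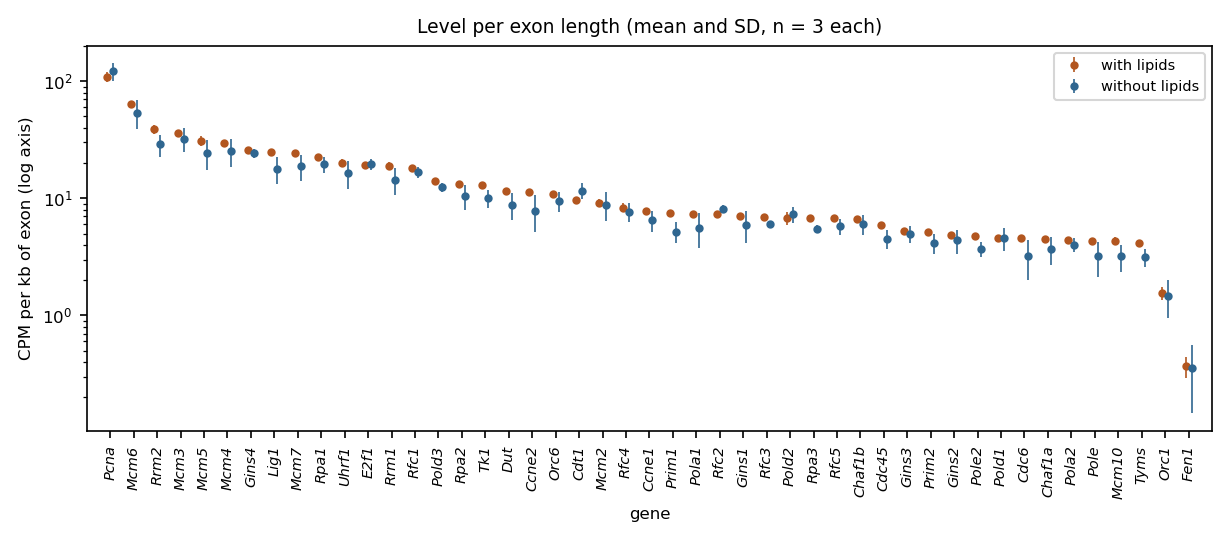
Level of each replication gene per exon length, in CPM per kb of exon on a log axis (mean and SD, n = 3 each, with lipids left of without lipids), ordered by the mean with lipids. Pcna leads at 109 with lipids and 122 without lipids, and Fen1, most of whose exon bases lie over an opposite-strand gene, is lowest.

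Close sequence copies could take or give reads for 6 of the genes. Copies of at least 95% identity over at least 500 bases were found for Cdc6, Mcm7, Pcna, Rfc5, Tyms and Uhrf1. Pcna-ps2 had 205 counts over the 6 libraries, against 35493 for Pcna, and the copy of Uhrf1, Gm5648, had 56, against 10077 for Uhrf1. The copies of Cdc6 and Rfc5 had 2 and 1 counts, and those of Mcm7 and Tyms had no row in the tables used here.

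Of 50 other genes of the replication pathway, all tested, 7 were called higher with lipids by edgeR and 0 lower. Over all tested genes edgeR called 4.58% higher and 6.87% lower. Of the 50, 1 was lower at an unadjusted p under 0.05, and DESeq2 and limma-voom called 0 lower. A positive log2 fold change was seen for 43 of them, and the median was 0.27. Tfdp2, a dimer partner of E2F factors, had 36.0, 40.4 and 38.0 CPM with lipids, against 31.4, 27.9 and 28.8 CPM without lipids (log2 fold change 0.38, adjusted p = 0.0108 by edgeR). Ticrr, which helps fire origins, had 19.0, 17.5 and 17.7 CPM with lipids, against 14.4, 11.8 and 9.83 CPM without lipids (log2 fold change 0.59, adjusted p = 0.0131 by edgeR). E2f8, a repressing E2F that is itself made in S phase, was at 0.50 (adjusted p = 0.0206 by edgeR). The other 4 were Dscc1 of a second clamp loader at 0.65, the origin-firing kinase Cdc7 at 0.61, the helicase Recql4 at 0.59 and the histone mRNA-binding gene Slbp at 0.37. Replicates 1, 2 and 3 without lipids were at median log2 ratios of -0.01, -0.28 and -0.42 for these 50 genes. Without replicate 1 of the group without lipids, 32 of the 50 were called higher and 2 lower by edgeR. Of all tested genes, 12% were called higher and 15.1% lower in that fit. Without replicate 3 in place of replicate 1, 3 of the 50 were called higher and 0 lower, at a median of 0.15. Of all tested genes, 5.01% were called higher and 6.69% lower there, so the number called higher was near the background.

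A further list held genes of G1 and genes that restrain division, with the nucleotide genes Samhd1 and Rrm2b. Its median SD of log2 CPM was 0.08 with lipids and 0.14 without lipids, against 0.31 without lipids for the 47 replication genes. Without lipids it was 0.24 for the other replication genes and 0.24 for mitosis genes, with a larger SD without lipids for 47 of 50 and 30 of 30. Of the 22 G1 and restraining genes, 6 were called higher with lipids by edgeR and 1 lower, with a median log2 fold change of 0.16. Over all tested genes the shares called were 4.58% higher and 6.87% lower. Cdkn1a, the p53-responsive inhibitor of cyclin-dependent kinases, had 221, 219.7 and 213 CPM with lipids, against 161, 161 and 166 CPM without lipids (log2 fold change 0.42, adjusted p = 0.000591 by edgeR). Its 3 libraries without lipids lay close together and below all libraries with lipids. Rb1, which holds E2F factors inactive, had 85.7, 91.4 and 89.8 CPM with lipids, against 70.5, 61.7 and 71.2 CPM without lipids (log2 fold change 0.39, adjusted p = 0.00489 by edgeR). Samhd1, which breaks down deoxynucleotides, had 567, 589 and 599 CPM with lipids, against 463, 453 and 504 CPM without lipids (log2 fold change 0.31, adjusted p = 0.00756 by edgeR). The other 3 called higher were Ccnd2 at 0.55, Cdkn1b at 0.35 and Btg1 at 0.28. Leaving out each library in turn gave 2 to 7 called higher and 0 to 2 lower. Those fits called 219 to 1566 of all genes higher and 423 to 1975 lower. Cdkn1c, another inhibitor of cyclin-dependent kinases, was lower with lipids, at 0.995, 1.23 and 0.936 CPM with lipids, against 1.68, 1.70 and 2.62 CPM without lipids (log2 fold change -0.92, adjusted p = 0.0311 by edgeR). Of the genes called higher with lipids, Ccnd2 promotes S-phase entry, and Cdkn1a, Cdkn1b and Rb1 restrain it. Cdk4, a kinase that promotes entry, was wholly lower with lipids but not called, at a log2 fold change of -0.23 (adjusted p = 0.0529 by edgeR).

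Of 30 mitosis genes, 12 were called higher with lipids by edgeR and 0 lower, against 4.58% of all tested genes higher and 6.87% lower. All 30 were positive, and replicates 1, 2 and 3 without lipids were at median log2 ratios of -0.09, -0.42 and -0.56. The smallest p-values were those of Foxm1, Ndc80 and Incenp, with log2 fold changes of 0.48, 0.52 and 0.29. All 30 were called higher by edgeR when replicate 1 without lipids was left out, against 12% of all tested genes. Leaving out any other library left 1 to 8, and those fits called 219 to 649 of all genes higher.

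**Figure D5:**
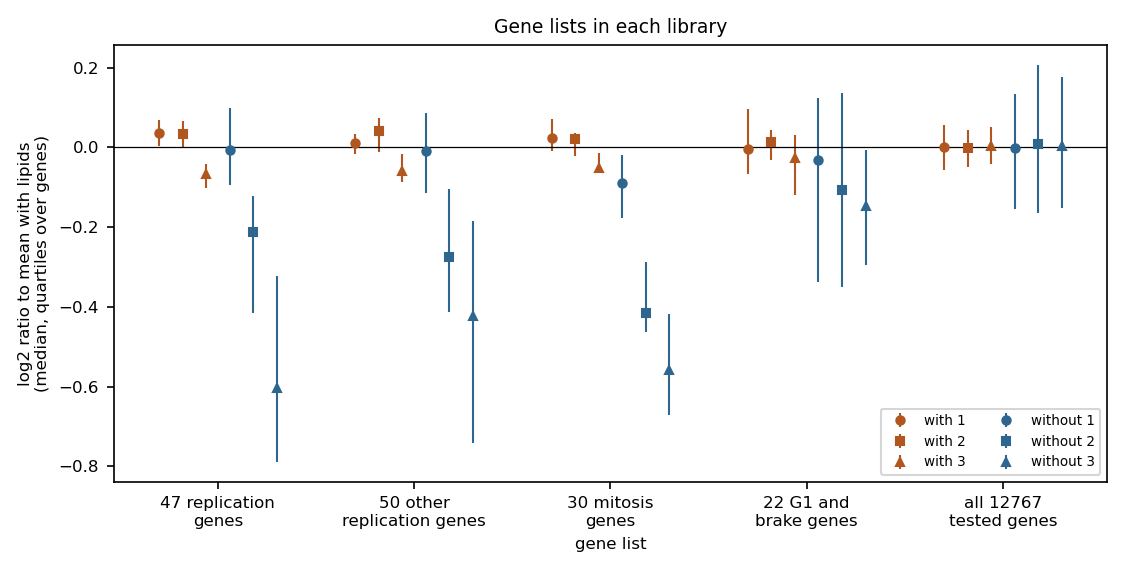
Log2 ratio of each gene to its mean with lipids, as the median (symbol) and quartiles (line) over 4 gene lists and all tested genes, in each library, with lipids left of without lipids. Medians of replication and mitosis genes are lowest in replicate 3 without lipids, at -0.60 and -0.56, and the median of all tested genes stays near 0 in each library.

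All 6 libraries carried the defining macrophage genes, with summed levels of 8 markers of 29207 to 29564 CPM with lipids and 29525 to 34406 CPM without lipids. This sum was carried by Lyz2, at 19627 to 19862 CPM with lipids and 20706 to 24751 CPM without lipids. Of the 8, edgeR called Itgam and Fcgr1 higher with lipids (log2 fold changes 0.56 and 0.29) and Cd68 lower (-0.55). Every listed marker of neutrophils, dendritic cells, mast cells and epithelium stayed under 1 CPM, and Ly6g, Mcpt4, Fcer1a and Krt8 were at 0 in all 6 libraries. The fibroblast list summed to 122, 114 and 121 CPM with lipids, against 119, 154 and 162 CPM without lipids, with 1 of 6 genes (Col3a1) called lower with lipids by edgeR. Its level was thus lowest without lipids in replicate 1, the library in which replication genes were highest, and its part in the result was not tested. The stem and progenitor list, carried by Kit, summed to 5.01 to 5.39 CPM with lipids and 11.7 to 13.7 CPM without lipids, and the T and NK cell list, carried by Cd4, to 6.24 to 7.07 CPM with lipids and 11.1 to 17.5 CPM without lipids, while Cd3e and Cd8a were at 0. The megakaryocyte list, carried by Pf4, summed to 416 to 431 CPM with lipids and 222 to 258 CPM without lipids. The endothelial list, carried by Kdr, summed to 31.6 to 34.6 CPM with lipids and to 51.8, 44.8 and 35.6 CPM in replicates 1, 2 and 3 without lipids. Its genes went both ways. By edgeR, Kdr was called lower with lipids (log2 fold change -0.45) and Cdh5 higher (1.03). Cdh5 was at only 0.983 to 1.65 CPM with lipids, and Pecam1 was at 0.46 and not called. The B and plasma cell list summed to 1.76 to 2.23 CPM with lipids and 1.53 to 2.39 CPM without lipids. The part of these lists in the result was not tested. The 20 most abundant genes took 11.3% to 11.6% of counts with lipids and 13.6% to 14.4% without lipids, and mitochondrial genes took 1.58% to 1.75% across the libraries.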

How the data were processed

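Bulk RNA sequencing was done on 6 libraries, 3 with and 3 without lipids in the conditioned medium, grouped by their titles. The authors deposited raw counts per Ensembl gene for each library. GRCm38.p4 is the build and TopHat2 2.1.0, HTSeq and DESeq2 are the tools named, without the step each served, per the submitters' processing notes. No source used here gives the strand setting or annotation release. Of 46603 identifiers, 46091 matched GENCODE M21, and the 512 others stayed in the totals. At this depth 3 counts are 0.118 to 0.154 counts per 1000000 (CPM).

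The quasi-likelihood F test of edgeR 4.0.16 (R 4.3.3) was run two-sided, after filterByExpr (minimum count 10, minimum total 15) and TMM scaling, with Benjamini-Hochberg adjustment over 12767 genes at 0.05. Fold changes are with minus without lipids, SE values come from the F statistic, and the steps were tested on simulated data. In those data edgeR called 9 of 50 genes changed 1.25-fold and 37 of 50 changed 1.5-fold, so small changes were mostly missed. Each simulated gene had the same dispersion in both groups, unlike the replication genes here. CPM are computed from the counts and TMM factors. Alternatives were median-of-ratios scaling, totals alone, no filter, 1 CPM in 3 libraries, DESeq2 1.42.0, limma-voom (3.58.1) with and without quality weights, the replicate number as a block, an adjusted p of 0.01 and each library left out.

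The genes, lists and tests were chosen with earlier results of these data known. Values per library are printed for genes past the threshold and, in each role group, for the gene with the highest mean CPM and that with the smallest p. Values of Cdc6 and Fen1 per library, and genes named from other lists beyond those past the threshold, were chosen after their values were seen. No label ties a replicate to its own mouse or culture, so the p-values reflect library-to-library spread that may be only technical. Replicates differed by more than sampling noise, and none was merged.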

Additional observations from a re-analysis of the deposited data

How the results depend on the processing

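On all 6 libraries edgeR called 2 replication genes higher and 0 lower, 7 of 50 other replication genes higher and 0 lower, and 585 of all genes higher and 877 lower. Library totals alone gave 13 replication genes, 15 other replication genes and 1241 of all genes higher, and turned E2f1 to 0.0494. No filter gave 23, 25 and 1009 higher and 1, 1 and 1243 lower. That fit kept every gene with a count, so its numbers for all genes come from a larger set than 12767. DESeq2 gave 8, 11 and 640 higher and 907 of all genes lower, and limma-voom 5, 8 and 600 higher and 845 lower. Quality weights gave 28, 26 and 1450 higher and 1, 1 and 1919 lower, with Pold1 at -0.0918 and Fen1 at -0.1607. An adjusted p of 0.01 gave 0, 0 and 216 higher and 444 of all genes lower. With each library left out in turn, replication genes higher numbered 0 to 32 and lower 0 to 1, other replication genes 0 to 32 and 0 to 2, and all genes 219 to 1566 and 423 to 1975. The median of the replication genes stayed positive under every alternative listed, from 0.10 without replicate 3 to 0.41 without replicate 1 of the group without lipids. Over those 6 fits these log2 fold changes changed sign: Mcm2 ran from -0.15 to 0.24, Mcm3 from -0.009 to 0.32, Gins2 from -0.0365 to 0.27, Gins3 from -0.0092 to 0.23, Orc1 from -0.12 to 0.41, Pold1 from -0.0741 to 0.22, Pold2 from -0.21 to 0.019, Fen1 from -0.22 to 0.63, Chaf1b from -0.0061 to 0.24 and E2f1 from -0.11 to 0.0232. The cause was not tested. Median-of-ratios scaling and a filter of 1 CPM in 3 libraries kept 2 replication genes called, and that filter removed Fen1.

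With the replicate block, edgeR called 18 replication genes, 20 other replication genes and 715 of all 12767 genes higher and 937 lower. Whether the numbers pair the libraries cannot be told from 3 libraries per group. Over all tested genes, deviations of same-numbered libraries correlated at -0.0106, -0.0791 and 0.171. Replicates 1 and 2 with lipids correlated best with another number, and replicate 3 with its own. Medians of the replication genes fell in the order of replicates 1, 2 and 3 in both groups. Fen1 rested on 111 counts over 6 libraries, with an SE of 0.37.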
